A study of Mus musculus with 8 samples.

Results

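Bcl2 family genes that decide between cell survival and death were measured in mouse mammary tumours grown from carcinoma cells that had received an adenovirus carrying PRH, or an empty adenovirus. The 10 genes Bcl2, Bcl2l1, Bcl2l2, Mcl1, Bak1, Bad, Bcl2l11, Bik, Bmf and Hrk were found by matching the accession of each probe to a gene symbol. They had 14 of the 55681 non-control probes on the array, out of 20145 genes with a name, and every probe was kept as its own measurement. Of these, 12 probes of 9 genes were bright enough to test, which meant a signal well above background on 4 or more arrays out of 8. Hrk, and 1 of the 2 Bcl2l2 probes, were not.

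Total RNA was hybridised to 1-colour (Cy3) Agilent mouse arrays, 4 in the PRH-labelled group and 4 in the control group, with 1 array for each of the mouse numbers 1, 2, 3 and 5 in both groups. 4T1 cells, a mouse mammary carcinoma line of the BALB/c strain, were given Adenoviral-PRH in the PRH-labelled group and empty adenovirus in the control group, in both cases for 24 h at a multiplicity of infection of 50. The no. 3 fat pad of female BALB/c mice, 6 to 8 weeks old, then received the cells of either group, and tumours were taken on day 22. Adenoviral genomes are not copied with the host chromosomes, and both groups come from 1 cell line. The labels do not say whether 1 animal carried both tumours of a mouse number. They also disagree on the material: RNA of whole tumours in the design text, but of endothelial isolates in the protocol for extraction. That text names human arrays, whereas the accessions of the probes are those of mouse transcripts.

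PRH is the protein of Hhex, a homeodomain transcription factor. The Hhex probe A_52_P528600 went against the labels, with log2 signals of -1.71, -1.46, -1.79 and -1.72 on the PRH-labelled arrays of mice 1, 2, 3 and 5, against -0.54, -0.33, -0.69 and -0.78 on the control arrays. All log2 signals here are relative to the 75th percentile of the same array, and the arrays of a group are given in this mouse order. Hhex was 2.13-fold lower in the PRH-labelled tumours (log2 difference -1.09, SE 0.148, adjusted p = 0.00674 in limma), a call lost with spike-in centring, where the log2 difference was -1.22 (adjusted p = 0.139). The probe reads mouse Hhex at harvest. The position and sequence of the probe are not given in the sources used here, so whether it reads the introduced PRH was not tested. The groups are therefore called by their labels throughout, and no direction below says that PRH protein was raised.

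Proteins of the Bcl2 family act at the outer membrane of mitochondria. Survival members (Bcl2, Bcl-xL from Bcl2l1, Bcl-w from Bcl2l2, and Mcl1) hold the pore-forming effectors Bak and Bax in check. BH3-only members such as Bad, Bim (Bcl2l11), Bik, Bmf and Hrk are death signals that bind the survival proteins or the effectors, and once effectors open the membrane, released cytochrome c starts the caspase cascade. Many carcinomas depend on Mcl1 or Bcl-xL, and Mcl1 transcript and protein both turn over fast.

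3 of the 4 survival genes had a probe with lower signal in the PRH-labelled tumours, while no death gene passed the test. Mcl1, Bcl2l2 and Bcl2l1 each had 1 probe at 1.67- to 2.13-fold lower signal, and Bcl2, the founding member, did not pass. The brighter probes of Mcl1 and Bcl2l1 did not pass either, and with only the brightest probe of each gene kept, Bcl2l2 alone did. The difference between survival and death genes was not tested. In all, 3 of the 12 tested probes of the family were lower and 0 were higher at an adjusted p under 0.05 (25%). Over all 39463 tested probes 26.2% passed in either direction, 10.1% as lower and 16.1% as higher, so the total share of the family lay near the background. By role, 3 of 6 survival probes passed as lower, with a median log2 difference of -0.70, against 0.22 over all tested probes. Tested probes of like brightness to these survival probes had medians between -0.13 and 0.14. Of the 6 death gene probes 0 passed in limma and 1 (Bik) had an unadjusted p under 0.05, with a median of 0.13. Member genes were chosen with results of these data known, so these counts describe the members.

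**Figure D1:**
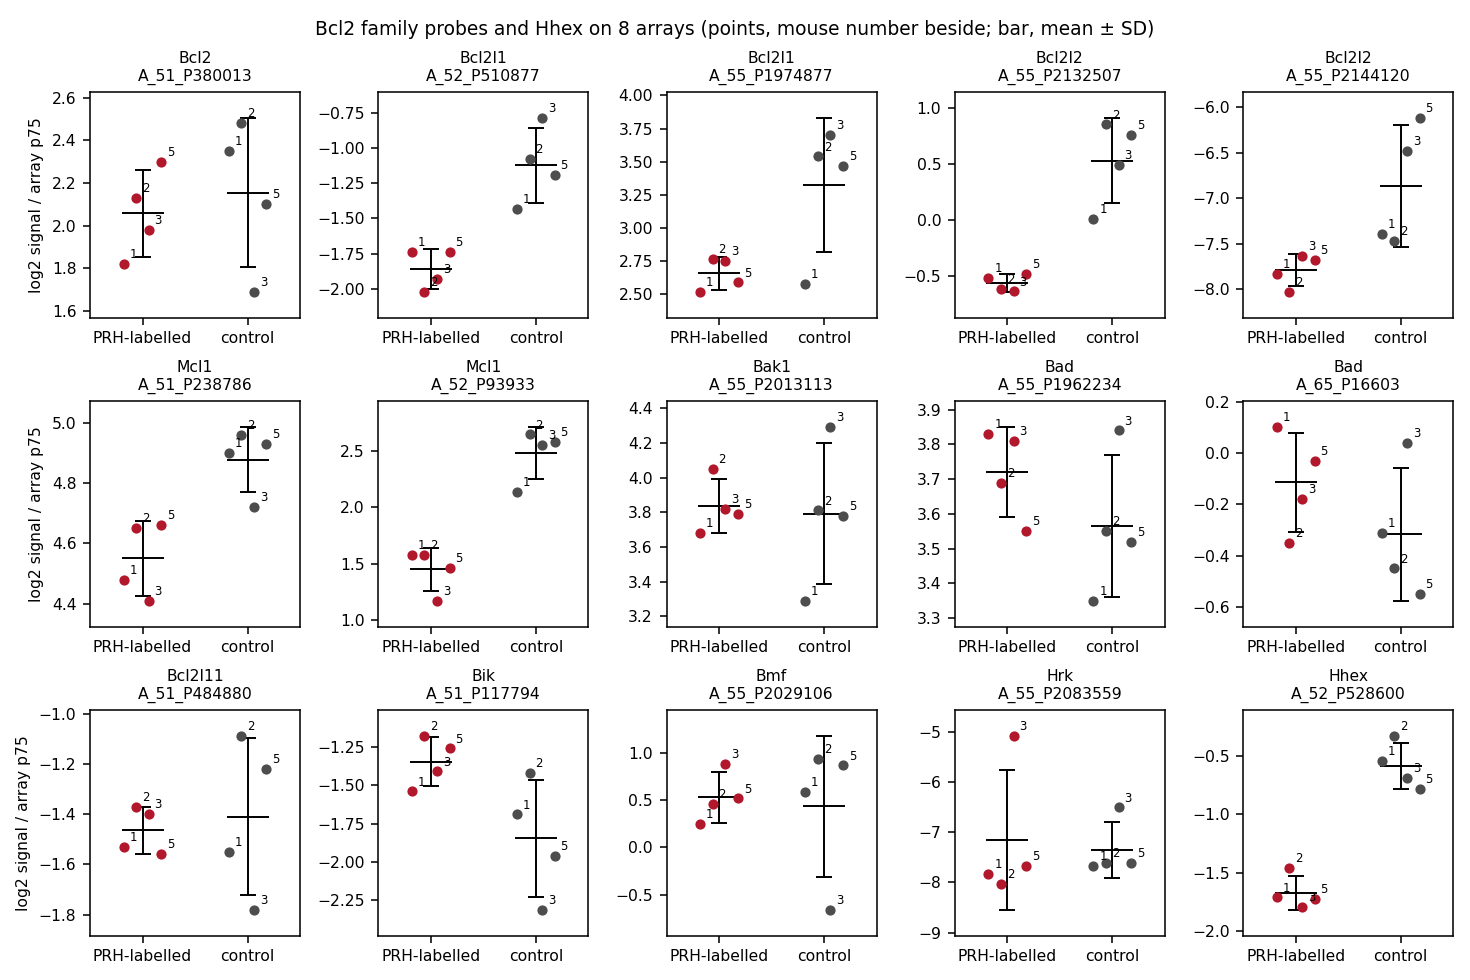
Log2 signal relative to the 75th percentile of the array (vertical axis) for the 14 probes of the Bcl2 family and Hhex, with PRH-labelled arrays left of control arrays; points are arrays with their mouse number, and bars are mean ± SD (n = 4 each). Among tested probes the groups are apart for 1 probe each of Bcl2l1 and Bcl2l2, both Mcl1 probes and Hhex. Bcl2l2 probe A_55_P2144120 is also apart but was well above background on 0 of 8 arrays, and Hrk lies near background.

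The promoters of the 3 survival genes that passed, and of Bcl2, which did not, are shown because they let the 4 genes be set side by side. Each is the 250 bases before a start site, read 5′ to 3′ on the strand of the gene, from RefSeq on GRCm38.p6. Capitals mark ATTAA, a core that homeodomain factors such as PRH can bind, and GGGCGG, the GC box, on either strand, so that CCGCCC and TTAAT also count. Mcl1 lies at chr3:95658471-95658720 on the plus strand and Bcl2l2 at chr14:54883175-54883424 on the plus strand. Bcl2l1, at chr2:152828490-152828739, and Bcl2, at chr1:106714291-106714540, are on the minus strand. Bcl2l1 has 3 windows in the table, and the one shown is the one that holds ATTAA.
Mcl1: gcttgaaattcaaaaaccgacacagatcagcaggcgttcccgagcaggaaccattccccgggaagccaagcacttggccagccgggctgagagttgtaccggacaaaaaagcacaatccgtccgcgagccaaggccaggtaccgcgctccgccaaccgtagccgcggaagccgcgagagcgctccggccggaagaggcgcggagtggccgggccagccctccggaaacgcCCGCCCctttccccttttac
Bcl2l2: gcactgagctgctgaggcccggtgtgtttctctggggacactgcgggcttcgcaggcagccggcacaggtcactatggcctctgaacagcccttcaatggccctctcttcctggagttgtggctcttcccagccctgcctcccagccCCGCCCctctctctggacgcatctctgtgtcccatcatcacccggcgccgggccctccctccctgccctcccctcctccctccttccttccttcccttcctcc
Bcl2l1: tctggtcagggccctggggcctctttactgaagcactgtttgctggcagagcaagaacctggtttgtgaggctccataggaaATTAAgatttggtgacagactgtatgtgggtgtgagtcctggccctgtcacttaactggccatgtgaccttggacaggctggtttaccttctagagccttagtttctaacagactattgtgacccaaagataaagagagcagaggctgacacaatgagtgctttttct
Bcl2: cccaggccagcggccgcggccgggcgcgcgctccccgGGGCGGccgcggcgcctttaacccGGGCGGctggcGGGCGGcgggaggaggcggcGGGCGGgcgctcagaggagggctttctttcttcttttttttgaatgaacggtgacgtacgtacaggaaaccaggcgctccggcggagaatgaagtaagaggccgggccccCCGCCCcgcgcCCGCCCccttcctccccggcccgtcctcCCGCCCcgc
ATTAA was found in none of the windows of Mcl1, Bcl2l2 and Bcl2, and 1 time in the Bcl2l1 window. GGGCGG was found 1 time each for Mcl1 and Bcl2l2, 0 times for Bcl2l1 and 7 times for Bcl2, whose window has 74.8% G and C, against 48.4% for that of Bcl2l1. Of the 15 windows of 9 member genes, 4 held ATTAA and 7 held GGGCGG, where 24.9% and 32.7% of all 32851 promoter windows did. The 4 windows with ATTAA belonged to Bcl2l1, Bmf, Bad and Hrk. These matches are letters in a window, and binding was not measured.

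Mcl1 codes for a short-lived survival protein that holds Bak and Bim. Its dimmer probe A_52_P93933 read 1.58, 1.58, 1.17 and 1.46 on the PRH-labelled arrays, against 2.14, 2.65, 2.56 and 2.58 on the control arrays. All 4 PRH-labelled arrays lay below every control array, and control array 1 was the lowest of the controls. Mean levels were 1.45 ± 0.19 in PRH-labelled and 2.48 ± 0.23 in control tumours (SD, n = 4 each), 2.05-fold lower in the PRH-labelled group (log2 difference -1.04, 95% interval -1.43 to -0.64, limma adjusted p = 0.00739). The exact permutation test over the 70 arrangements of the arrays gave p = 0.0286, the smallest that 4 against 4 arrays allow.

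The brighter Mcl1 probe A_51_P238786 read 4.48, 4.65, 4.41 and 4.66 on the PRH-labelled arrays, against 4.90, 4.96, 4.72 and 4.93 on the control arrays. Here too the groups did not overlap, but the step was smaller, at 1.25-fold lower, and did not pass after adjustment (log2 difference -0.33, 95% interval -0.61 to -0.04, adjusted p = 0.091 in limma). It passed with trend and robust eBayes (adjusted p = 0.0339) and with median centring (-0.79, limma adjusted p = 0.0138). Within an array, the log2 ratio of the dimmer to the brighter probe was -3.10 ± 0.16 in PRH-labelled and -2.39 ± 0.26 in control tumours (SD, n = 4 each), with no overlap, so that the 2 Mcl1 probes changed unequally. Such a ratio does not change when an array is scaled by a constant, but it can change with a shift that depends on brightness. Tested probes of like brightness had a median log2 difference of -0.13 for the dimmer probe and 0.06 for the brighter. How often 2 probes of 1 gene part in this way was not tested. Mcl1 has 2 transcripts in that RefSeq annotation, and which of them each probe reads was not tested.

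Bcl2l2, which codes for Bcl-w, a survival protein best known for its need in sperm development, read -0.52, -0.62, -0.64 and -0.48 on the PRH-labelled arrays at probe A_55_P2132507. On the control arrays it read 0.01, 0.85, 0.49 and 0.76. The PRH-labelled arrays lay close together, while the controls spread more, with control array 1 closest to them. The mean was -0.56 ± 0.08 in PRH-labelled and 0.53 ± 0.38 in control tumours (SD, n = 4 each), 2.13-fold lower in the PRH-labelled group (log2 difference -1.09, 95% interval -1.55 to -0.63, limma adjusted p = 0.00906). Its other probe, A_55_P2144120, was well above background on 0 of 8 arrays and gave no fold.

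Bcl2l1 codes for Bcl-xL, which holds Bak, Bax and several BH3-only proteins. Its dimmer probe A_52_P510877 read -1.74, -2.02, -1.93 and -1.74 on the PRH-labelled arrays, against -1.43, -1.08, -0.79 and -1.19 on the control arrays. The groups did not overlap, and the mean was 1.67-fold lower in the PRH-labelled group (log2 difference -0.74, 95% interval -1.12 to -0.35, limma adjusted p = 0.0171). Without PRH-labelled array 2 that adjusted p was 0.0501.

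The brighter Bcl2l1 probe A_55_P1974877 read 2.52, 2.77, 2.75 and 2.59 on the PRH-labelled arrays, against 2.58, 3.54, 3.70 and 3.47 on the control arrays. Control array 1 lay inside the PRH-labelled range and the other 3 controls lay above it. The mean was 2.66 ± 0.12 in PRH-labelled and 3.32 ± 0.50 in control tumours (SD, n = 4 each), which did not pass (log2 difference -0.67, 95% interval -1.25 to -0.09, limma adjusted p = 0.0877). Without control array 1 the log2 difference was -0.91 and passed (limma adjusted p = 0.00242). The ratio of the 2 Bcl2l1 probes within an array overlapped between the groups. The gene has 11 transcripts there, and which protein form each codes for was not looked up. Bcl2l1 is known for a long survival form and a short form that promotes death, and the arrays as read here do not tell these apart.

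Bcl2, which holds Bax and BH3-only proteins at mitochondria and the endoplasmic reticulum, read 1.82, 2.13, 1.98 and 2.30 on the PRH-labelled arrays, against 2.35, 2.48, 1.69 and 2.10 on the control arrays. The PRH-labelled range lay inside that of the controls. Its log2 difference was -0.10 with a 95% interval of -0.57 to 0.38 (limma adjusted p = 0.737), and it turned to 0.02 and 0.03 under other scalings. That interval leaves room for a fall smaller than that of Mcl1 probe A_52_P93933 or of Bcl2l2, and it holds the -0.33 of the brighter Mcl1 probe. The difference between Bcl2 and these genes was not tested.

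**Figure D2:**
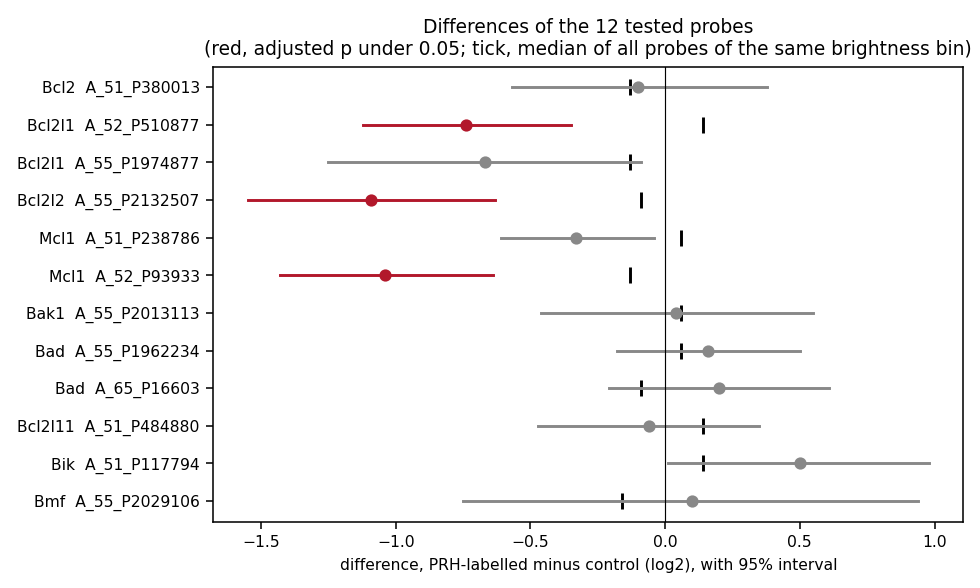
Log2 difference, PRH-labelled minus control (horizontal axis), of the 12 tested probes with 95% intervals from limma; red marks an adjusted p under 0.05, and ticks mark the median of all tested probes of like brightness. Only 1 probe each of Bcl2l1, Bcl2l2 and Mcl1 is red, and the intervals of all death gene probes but that of Bik include 0.

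Bak1 is the 1 pore-forming effector among the members. It read 3.68, 4.05, 3.82 and 3.79 on the PRH-labelled arrays, against 3.29, 3.81, 4.29 and 3.78 on the control arrays. The groups overlapped and the log2 difference was 0.04 (95% interval -0.46 to 0.55, limma adjusted p = 0.9), with a sign that turned under median centring (-0.42).

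Bad, a BH3-only protein that binds Bcl-xL and is held off by phosphorylation, had 2 probes. The brighter, A_55_P1962234, read 3.83, 3.69, 3.81 and 3.55 on the PRH-labelled arrays, against 3.35, 3.55, 3.84 and 3.52 on the control arrays. The dimmer, A_65_P16603, read 0.10, -0.35, -0.18 and -0.03 on the PRH-labelled arrays, against -0.31, -0.45, 0.04 and -0.55 on the control arrays. Both overlapped between the groups, with log2 differences of 0.16 (95% interval -0.18 to 0.50) and 0.20 (95% interval -0.21 to 0.61). Neither passed (limma adjusted p = 0.451 and 0.42), and both turned negative under median centring.

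Bcl2l11, whose protein Bim binds every survival member, read -1.53, -1.37, -1.40 and -1.56 on the PRH-labelled arrays, against -1.55, -1.09, -1.78 and -1.22 on the control arrays. PRH-labelled values lay inside the range of the controls, with a log2 difference of -0.06 (95% interval -0.47 to 0.35, limma adjusted p = 0.824).

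Bik, a BH3-only protein of the endoplasmic reticulum, was the death gene with the smallest p. It read -1.54, -1.18, -1.41 and -1.26 on the PRH-labelled arrays, against -1.69, -1.42, -2.31 and -1.96 on the control arrays. The PRH-labelled array was higher than the control array of the same number in 4 of 4 mouse numbers. Only control array 2 fell inside the PRH-labelled range. The log2 difference of 0.50 (95% interval 0.01 to 0.98) had an unadjusted limma p of 0.0452 and an adjusted p of 0.119, and it shrank to between 0.03 and 0.20 under the scalings by median or quantile and in the authors' values.

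Bmf, a BH3-only protein tied to the cytoskeleton, read 0.25, 0.46, 0.89 and 0.52 on the PRH-labelled arrays, against 0.59, 0.94, -0.66 and 0.87 on the control arrays. Control array 3 stood below all others, and the log2 difference was 0.10 (95% interval -0.75 to 0.94, limma adjusted p = 0.856). Without that array the log2 difference was -0.27, and with median centring it was -0.37. Hrk, a BH3-only protein best known from neurons, was well above background on 1 of 4 PRH-labelled arrays (array 3, at -5.09) and on 0 of 4 control arrays, so no fold is given.

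Probes of different brightness shifted between the groups, and the members were set beside probes like them. In 10 equal bins from dimmest to brightest, the median log2 difference was 0.87 in the dimmest, -0.16 in bin 8 and 0.06 in the brightest. Mcl1 probe A_52_P93933, at -1.04, stood in bin 9, where the median was -0.13, and Bcl2l2, at -1.09, in bin 7 with a median of -0.09. Bcl2l1 probe A_52_P510877, at -0.74, stood in bin 6, with a median of 0.14. Bik, at 0.50, was also in bin 6, and Bak1, at 0.04, was in bin 10, where the median was 0.06. Of the probes in bins 6, 7 and 9, 14.7%, 18.3% and 13.1% passed as lower.

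**Figure D3:**
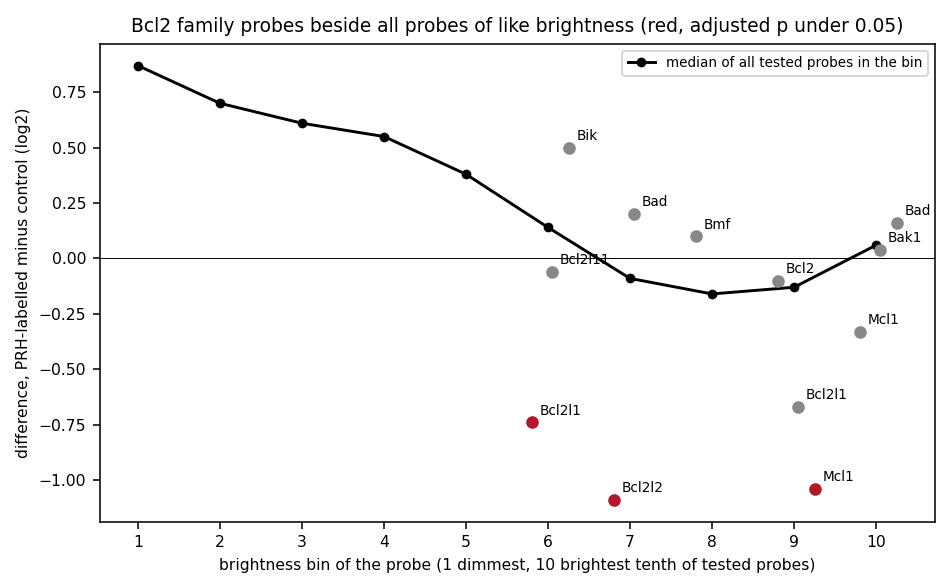
Log2 difference, PRH-labelled minus control, against the brightness bin of the probe (1 dimmest, 10 brightest) for the 12 tested Bcl2 family probes, with the line giving the median of all tested probes in each bin; red marks an adjusted p under 0.05. The called probes of Bcl2l1, Bcl2l2 and Mcl1 lie 0.74 to 1.09 below 0, where the bin medians are between -0.13 and 0.14.

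The scaling of the arrays bears on these values. PRH-labelled arrays had a 75th percentile of 722.4 ± 41.2 signal units, and control arrays one of 1094 ± 131 (SD, n = 4 each), a difference with an exact permutation p of 0.0286, whereas the median signal was 95.06 ± 5.03 on PRH-labelled and 104 ± 7.53 on control arrays (exact permutation p = 0.143). Of all tested probes, 6354 passed as higher and 3973 as lower. With median centring the split was 3118 higher and 9859 lower, with quantile normalization it was 4468 higher and 6224 lower, with normexp 3919 higher and 6139 lower, and for the authors' deposited values 3989 higher and 5886 lower. Median log2 differences over all tested probes were -0.25, 0.01, 0.01 and 0.02 under these 4, against 0.22 in the scaling used. The called probes of Mcl1, Bcl2l2 and Bcl2l1 were lower under all of them and passed in each: between -1.50 and -0.95 for Mcl1, between -1.56 and -1.04 for Bcl2l2, and between -1.20 and -0.70 for Bcl2l1. Centring on the spike-in probes kept the direction (-1.16, -1.22 and -0.86) but none passed (limma adjusted p = 0.152, 0.151 and 0.192), and 3 of all tested probes passed under it.

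**Figure D4:**
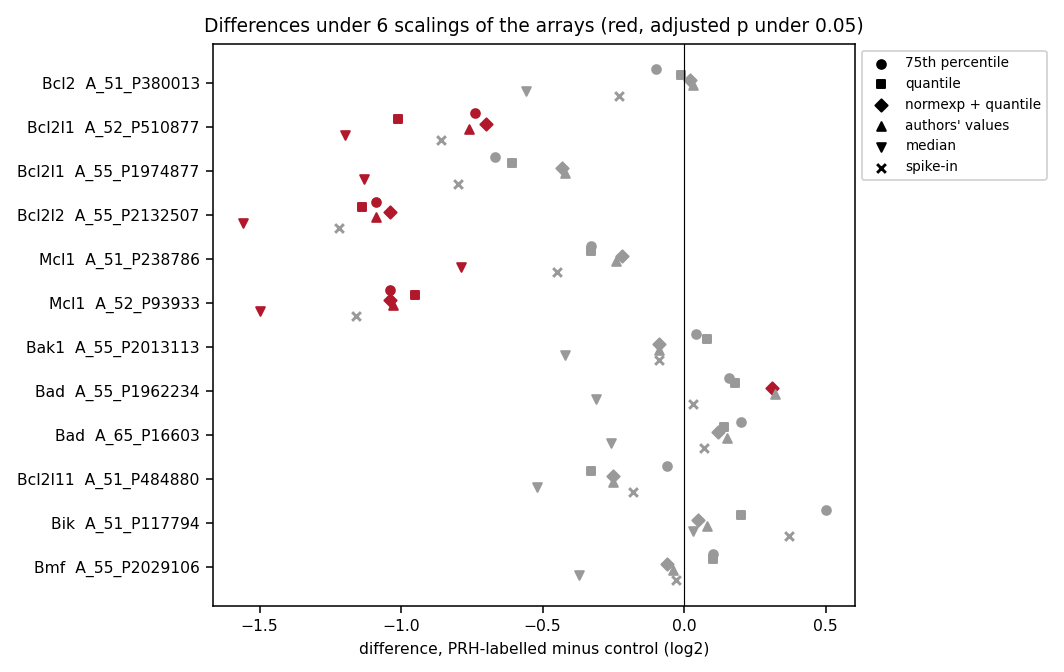
Log2 difference, PRH-labelled minus control (horizontal axis), of the 12 tested probes under 6 ways of scaling the arrays, one symbol each; red marks an adjusted p under 0.05. The survival probes other than that of Bcl2 stay below 0 under all 6, and Bak1, Bad and Bmf take both signs.

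Survival signals were also set over Bak1 on the same array, which removes a constant scaling but not a shift that depends on brightness. Bak1 was taken as the denominator after its values were seen. Its own log2 difference was 0.04, so these ratios largely restate the log2 differences above. They are a description with no test. The log2 ratio to Bak1 did not overlap between the groups for 4 of 6 survival probes, those of Bcl2l2, of Bcl2l1 (both) and of Mcl1 (A_52_P93933). Differences in these ratios were -1.13 for Bcl2l2, -0.78 and -0.71 for Bcl2l1, and -1.08 for Mcl1. Of all 39462 other tested probes, 11.5% had a ratio to Bak1 that was lower in the PRH-labelled group with no overlap, and 4.54% one that was higher. Counted on the log2 signals themselves, 4 of the 12 member probes were lower without overlap and 0 higher, against 12.7% and 18.8% of all tested probes (31.5% in either direction).

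Over the 8 arrays, the named genes most like each called survival probe were found by Pearson's r among 16377 genes with a tested probe. Cbx8, Il17ra and Tbc1d9 followed Mcl1, each at 0.996. Cep44 and Fndc3a (0.996 each) and Gm10324 (0.995) followed Bcl2l2, and Cops8 (0.987), Atp6v1h (0.986) and Cmtm2a (0.985) followed Bcl2l1. All of these arrays carry the same group difference, so genes with a like step between groups will have a high r.

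Outside the 10 members, 18 tested probes of 12 other Bcl2 family genes gave 2 higher and 1 lower, with a median log2 difference of 0.10. These were 11.1% higher and 5.56% lower, against 16.1% and 10.1% of all tested probes. Pmaip1 and Bbc3, which are BH3-only targets of p53, passed in opposite directions. Pmaip1, which codes for Noxa, the partner of Mcl1, was 1.5-fold lower (log2 difference -0.59, limma adjusted p = 0.0191), at -0.52 ± 0.14 in PRH-labelled and 0.06 ± 0.15 in control tumours (SD, n = 4 each). Bbc3, which codes for Puma, was 1.53-fold higher (0.61, adjusted p = 0.0217), at 1.43 ± 0.22 in PRH-labelled and 0.82 ± 0.12 in control tumours (SD, n = 4 each). Bnip3, a hypoxia-responsive mitophagy receptor, was higher at 1 of 3 probes (0.77, adjusted p = 0.0301), with 0.21 and 0.06 at the others. Both higher calls, of Bbc3 and Bnip3, were lost with median centring, at 0.15 and 0.31. Bnip3l, its relative, did not pass, at -0.65 for the probe with the smallest p and -0.42, -0.14 and -0.01 at the others. With mouse number as a block, the first of these, Bnip3l probe A_55_P2046943, passed (limma adjusted p = 0.0373). Bax, the effector beside Bak, had a log2 difference of -0.23 (limma adjusted p = 0.422).

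Downstream of mitochondria, among 23 tested probes of 18 apoptosome, caspase and inhibitor of apoptosis genes, 6 were lower and 1 higher, with a median of -0.36. These were 26.1% lower and 4.35% higher, against 10.1% and 16.1% of all tested probes. Diablo, which frees caspases from their inhibitors, fell by 0.98 at 1 probe on the log2 scale (limma adjusted p = 0.00979), with a log2 difference of -0.25 at the other, which did not pass. That other probe was lower and passed under median, quantile and normexp scaling and in the authors' values, at -0.72 to -0.52. Apaf1, the scaffold of the apoptosome, was lower by a log2 difference of -0.75 (adjusted p = 0.0156). Inhibitors were lower too, with Birc2 at -0.60 (limma adjusted p = 0.0165) and Xiap at -0.46 (limma adjusted p = 0.0274), and the Xiap call did not hold with normexp or in the authors' values. So the genes that passed as lower here include some that drive caspases and some that restrain them.

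Of 14 tested probes of 11 death receptor genes, 4 were lower and 1 higher, with a median of -0.36. Shares were 28.6% lower and 7.14% higher, against 10.1% and 16.1% of all tested probes. Cflar, which blocks caspase 8, had a log2 difference of -0.82 (limma adjusted p = 0.00952), with -0.38 and 0.23 at its other probes. Ripk1, a kinase of the receptor complex, was lower at -0.62 (adjusted p = 0.0156), and the receptor Tnfrsf1a at -0.83 at 1 probe (adjusted p = 0.0158) and -0.13 at the other. Its ligand Tnf was higher, at 0.70 (limma adjusted p = 0.0148), and lost that call under median, quantile and normexp scaling and in the authors' values, at 0.23 to 0.37.

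Among 19 tested probes of 13 partners and regulators of the family, 2 were higher and 3 lower, with a median of -0.29. In either direction 26.3% passed, near the 26.2% of all tested probes. The lower share was 15.8%, against 10.1% of all tested probes, and the higher share lay below their 16.1%. Usp9x, a deubiquitinase that stabilises the Mcl1 protein, was 1.87-fold lower (log2 difference -0.90, limma adjusted p = 0.00991), at -0.57 ± 0.18 in PRH-labelled and 0.34 ± 0.25 in control tumours (SD, n = 4 each). Dynll1, a dynein light chain that binds Bim, was lower at -0.99 (adjusted p = 0.0412), a call that held in 1 of 8 fits that each left out 1 array. Foxo3, a transcription factor that drives Bim, was higher at 0.83 (limma adjusted p = 0.022) and lost its call under the same 4 alternatives. Bag1, a Bcl2-binding chaperone partner, was higher at 1 probe (0.45, limma adjusted p = 0.0263, but -0.02 with median centring) and at -0.49 in the other, which did not pass. Leaving out 1 array at a time, the calls of Apaf1, Cflar, Diablo, Ripk1, Tnf, Tnfrsf1a and Usp9x held in 8 of 8 fits, that of Birc2 in 7, of Pmaip1 in 6, of Bbc3, Foxo3 and Xiap in 3, and of Bag1 and Bnip3 in 2. None of these held with spike-in centring. Over the 4 lists, 20 of 74 tested probes passed (27.0%), close to the 26.2% of all tested probes. By direction, 14 passed as lower (18.9%, against 10.1% of all tested probes) and 6 as higher (8.11%, against 16.1%). Shares over all tested probes depended on brightness. In bins 6 to 9, 13.1% to 18.3% passed as lower and 8.26% to 17.4% as higher. The shares were 2.76% and 20.2% in bin 1, and 7.52% and 15.8% in bin 10. The list shares were not matched for brightness, so a lean to lower beyond probes of like brightness was not tested.

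**Figure D5:**
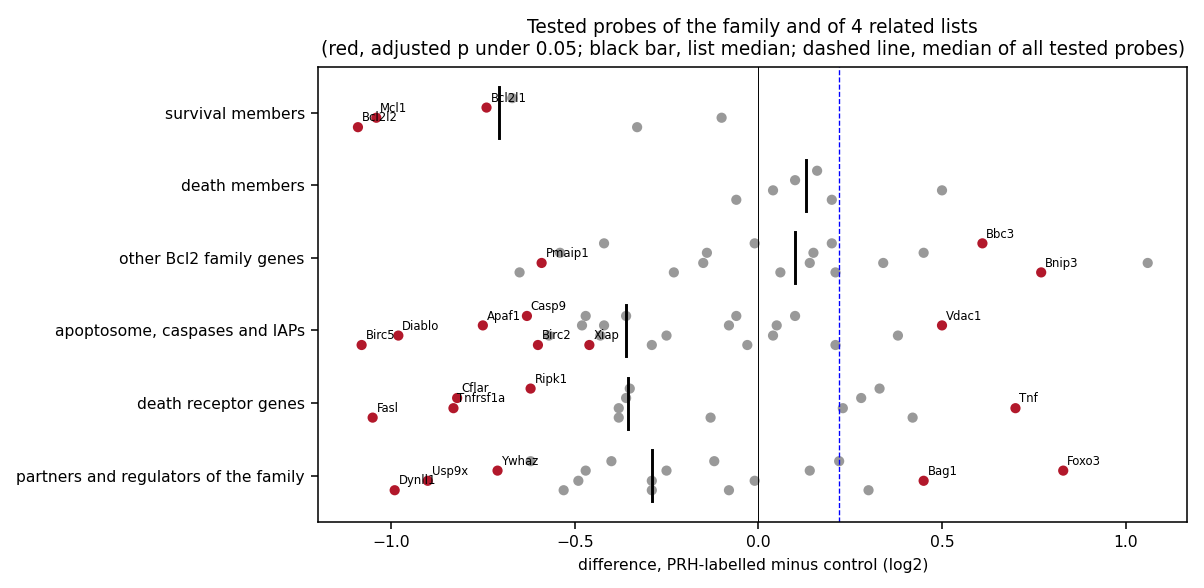
Log2 difference, PRH-labelled minus control (horizontal axis), of each tested probe of the survival and death members and of 4 related gene lists; red marks an adjusted p under 0.05, black bars the list median and the dashed line the median of all tested probes, 0.22. Survival members have the lowest median, -0.70, and each related list holds red points on both sides of 0.

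In a bulk sample, fewer cells of a type and less RNA per cell cannot be told apart. Of 9 tested probes of 6 macrophage and monocyte markers, 4 were lower in the PRH-labelled group (44.4%, against 10.1% of all tested probes) and 5 did not pass (Cd68 and Ly6c2 had no matched probe). Their mean log2 signal was 2.50 to 3.12 on PRH-labelled and 3.12 to 3.70 on control arrays. Ccr2, a monocyte chemokine receptor, was at -1.35 (limma adjusted p = 0.00741) and Mrc1, a macrophage mannose receptor, at -1.16 (adjusted p = 0.0268). C1qa and C1qb, complement genes of macrophages, were at 0.12 and -0.06. Adgre1 passed at 1 of 2 probes (-0.71 and 0.02), and Csf1r at 1 of 3 (-0.60, -0.52 and 0.00). Epithelial markers, which include those of the 4T1 cells, were higher at 2 of 9 tested probes (22.2%, against 16.1% of all tested probes) and lower at 0, with a mean of 4.38 to 4.76 on PRH-labelled and 3.35 to 4.37 on control arrays. The nearest arrays of the groups, at 4.38 and 4.37, were almost equal. List means were taken only in the scaling used here, so whether the groups stay apart under the others was not tested. Krt14 was at 1.93 (adjusted p = 0.0188) and Krt18 at 0.52 (adjusted p = 0.026, lost under median, quantile and normexp scaling and in the authors' values). Krt8, at -0.44, had the opposite sign and did not pass (adjusted p = 0.0763). The shares of the marker lists were not matched for brightness either, and the part of these marker shifts in the survival gene values was not tested.

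The means of the other 8 marker lists overlapped between the groups. Of 9 tested endothelial probes 1 passed (Kdr, 1.17), and of 7 fibroblast probes 1 did (Pdgfra, -0.73). Of 10 T and NK cell probes 1 passed (Cd8a, -0.97), and of 6 muscle probes 1 did (Mylpf, 1.31). Each of these shares was at most 16.7%, below the 26.2% of all tested probes that passed in either direction. Of 6 neutrophil probes 2 passed (33.3%), at 0.96 (Csf3r) and -1.15 (Retnlg), and no B cell, adipocyte or erythroid probe did. The other Kdr probe, at -0.48, had the opposite sign and did not pass. Leaving out 1 array at a time, Ccr2, Pdgfra and Mylpf held in 8 of 8 fits, Krt14 in 7, Mrc1 in 5, Krt18 in 3, Csf3r, Kdr and Retnlg in 2 and Cd8a in 0. Endothelial markers averaged 0.42 to 0.67 on PRH-labelled and -0.46 to 1.15 on control arrays, and every listed marker gene with a probe was above background on at least 1 array. All 8 arrays came from 1 slide and 1 scan. PRH-labelled arrays filled slide column 1 and control arrays slide column 2, so the column of the slide cannot be told apart from the group.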

How the data were processed

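Spot intensities on a linear scale were deposited for 8 arrays, background-corrected with Agilent Feature Extraction 10.7.3.1 per the file headers (9.1 per the submitters' processing notes). No non-control spot was saturated. The authors' deposited normalized intensities, matched by probe name, served as an alternative. Their medians were 123.83 to 125.9, and their background correction and any offset are unknown.

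Here, log2 values were formed from the deposited processed signal minus the 75th percentile of each array over non-control spots. Outlier-flagged spots were dropped where a probe had others, and spots of a probe were averaged. Probes well above background on at least 4 of 8 arrays were fitted in R 4.3.3 by limma 3.58.1 (lmFit, then eBayes, with group as the only term, two-sided), with Benjamini-Hochberg adjustment over all 39463 tested probes and a threshold of 0.05. Exact permutation tests were two-sided. The fit was tested on simulated data. Probes were named through RefSeq accessions, which gave 26582 probes a symbol. No probe sequences were used here.

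Alternatives were median, spike-in and quantile scaling, normexp with offset 50 on the median signal and median background (the mean signal, as planned, is not a column here) then quantile normalization, the authors' values, 2 other filters on dim probes, 1 probe a gene, mouse number as a block, trend and robust eBayes, leaving out each array, and, added after seeing the data, the percentile over probe means. Deviations from group means of same-numbered arrays correlated at 0.20 to 0.651. Of 8 arrays, 6 correlated best with the same-numbered array of the other group. Mouse numbers are also slide rows, so a pairing by animal cannot be told apart from the row of the slide.

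Named genes were all members and Hhex, up to 4 genes of each related list and up to 2 of each marker list by smallest p, and for each called member the 3 genes of highest r. The 10 members and all lists were chosen with earlier results of these data known. Nothing in the labels says how animals were shared, so p-values measure the spread between these arrays, whose number limits the precision.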

Additional observations from a re-analysis of the deposited data

Results flagged for a closer look

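Of 30 groups of 4 arrays (14 member probes and Hhex, each in both groups), 3 held an array far from the other 3, and chance alone flags about 1 in 20 groups. For Mcl1 probe A_52_P93933, control array 1 stood at 2.14, while the other controls lay between 2.56 and 2.65. It was the control nearest to the PRH-labelled arrays, and without it the log2 difference was -1.15. For Hrk, PRH-labelled array 3 stood at -5.09, against -8.03 to -7.68 on the other PRH-labelled arrays, with a signal of 20.4, and it was the only array on which Hrk was well above background. Control array 3 stood at -6.51 for Hrk, against -7.68 to -7.61 on the other controls, with no array of that group above background.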

How the results depend on the processing

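The log2 differences of the called Mcl1, Bcl2l2 and Bcl2l1 probes kept their direction under every alternative that holds them. Family calls, 3 as reported, were 5 with median centring, all lower, 0 with spike-in centring (3 of 12 at an unadjusted p under 0.05 in limma, 25%, against 20.3% of all tested probes), and 1 with 1 probe a gene, where the brighter probes of Mcl1 and Bcl2l1 stand in for the called ones. With normexp 1 Bad probe passed as higher, at 0.31 (adjusted p = 0.0469). With trend and robust eBayes 4 passed, all lower, the brighter Mcl1 probe being added. Leaving out single arrays gave 2 to 4 family calls, with 2 without PRH-labelled array 2 and 4 without control array 1. Over all probes, 3 passed with spike-in centring, and leaving out single arrays gave 6591 (without control array 5) to 13355 (without control array 1), against 10327. The 4 related lists had 20 calls, 33 with median centring, 0 with spike-in centring (8 of 74 at an unadjusted p under 0.05, 10.8%, below the 20.3% of all tested probes), and 9 to 30 without single arrays. With mouse number as a block the family again had 3 calls, all lower (adjusted p = 0.0366 for Bcl2l1, 0.0155 for Bcl2l2 and 0.0148 for Mcl1), 13560 probes passed in all, and the related lists had 17 calls.

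Some log2 differences changed sign. Bcl2 was at 0.02 with normexp and 0.03 in the authors' values, and -0.25 to 0.01 without single arrays. Bak1 was at -0.42 with median centring, -0.09 with spike-in centring, normexp and the authors' values, and -0.02 with the percentile over probe means, and -0.13 to 0.21 without single arrays, negative without PRH-labelled array 2 (-0.03) and control array 1. Bad probes were at -0.31 and -0.26 with median centring. Bcl2l11 was at -0.18 to 0.05 without single arrays, with 0.01 without control array 5. Bmf was at -0.37 with median centring, -0.03 with spike-in centring, -0.06 with normexp, -0.04 in the authors' values, and -0.27 to 0.26 without single arrays, with -0.02 without PRH-labelled array 3. Among other genes, Bnip3 probe A_66_P120736 took -0.41, -0.33, -0.07, -0.32, -0.35 and 0.00 under median, quantile, spike-in, normexp, the authors' values and probe means, and -0.21 to 0.20 without single arrays (-0.03 without PRH-labelled array 3), and Bnip3 probe A_55_P2091472 took -0.25 with median centring. Bnip3l probe A_55_P1961461 took 0.05 with quantile, 0.00 with normexp and 0.01 in the authors' values, with -0.14 to 0.07 without single arrays (0.05 without PRH-labelled array 1, 0.02 without control array 2), and probe A_55_P1961463 took 0.00 and 0.01 under normexp and the authors' values. With median centring Cflar probe A_55_P1983468 was at -0.24, Bag1 probe A_55_P2043317 at -0.02 (0.45 as reported, where it passed) and Tnnt3 probe A_51_P345699 at -0.18. Plin1, at 0.99 as reported (limma adjusted p = 0.618), was at -0.35 under normexp and -0.29 in the authors' table. The cause of these changes was not tested. Signal over background limits Hrk and 1 Bcl2l2 probe.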
